A study of Mus musculus with 3 samples.

Results

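The genes described here are 10 transcription factors that make up the core of activator protein-1 (AP-1) and the immediate early response, namely Fos, Fosb, Fosl1, Fosl2, Jun, Junb, Jund, Atf3, Egr1 and Maff. They were taken by gene name from the 56748 genes of the count table, and all 10 were found there. Their transcripts were measured by RNAseq in adult ventricular cardiomyocytes (ACMs) of male and female WT mice 8 to 10 weeks old, plated for 3 to 4 h on laminin. Vehicle (0.1% BSA), human interleukin-6 (IL-6, 10 ng/mL) or mouse oncostatin M (OSM, 10 ng/mL) was then given for 16 h. The vehicle, IL-6 and OSM cultures shared a serum-free medium with BSA and with BDM, a myosin inhibitor that stops contraction. RNA was pooled before sequencing and each condition had 1 library, so that each comparison is one of libraries, not of conditions, and has no replicate check. The IL-6 library is known from its labels alone. The series asked which genes are upregulated when OSM activates JAK1 through its receptor.

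AP-1 is a dimer of basic leucine zipper proteins. JUN proteins can pair with each other or with FOS proteins, FOS proteins need a JUN partner, and the dimer binds a short palindromic DNA element. Many of these genes are immediate early genes. Their transcription starts within minutes of a growth factor, cytokine or stress signal without new protein synthesis, through serum response factor with its ternary complex partners, CREB and STAT proteins, and their mRNAs are short-lived. In the heart they are known for their induction by stretch, hypertrophic agonists, ischemia and the isolation of the cells.

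The counts summed to 24939980 with vehicle, 26362446 with IL-6 and 30773001 with OSM. The 10 cardiomyocyte markers summed to 35141 CPM with vehicle, 35707 with IL-6 and 35747 with OSM, and 2 of them, the long genes Ryr2 and Ttn, were called lower with OSM (95% counting interval beyond 2-fold), calls that were lost with the trend on gene length removed. Markers of other cell types were low. Summed over each list, they lay between 35.5 and 37.9 CPM for 7 endothelial genes, between 5.46 and 6.37 for 8 fibroblast genes and between 36.2 and 44.0 for 7 smooth muscle and pericyte genes. The 8 macrophage genes summed to 23.7 CPM with vehicle, 24.0 with IL-6 and 54.4 with OSM, most of it from the lysosomal gene Cd68, while Ptprc, C1qa and C1qb were at 0 counts in all 3 libraries. Of 5 macrophage genes compared between OSM and vehicle, 1 was called higher (20%, against 3.74% of all genes), with a median log2 fold change of 1.01. Against IL-6, 2 of 4 were called higher (50%, against 4.24%). With the trend on gene length removed, 0 were called in either comparison. The part of non-myocytes in the results for the 10 factors was not tested. In RNA from whole cultures, fewer cells of a type and less RNA per cell cannot be told apart.

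With vehicle, Atf3 and the JUN genes were the most abundant of the 10. On the FPKM scale, which divides by gene length and so allows genes to be compared, the levels ran from 139 for Atf3 to 0.215 for Fosb. Atf3, a stress-induced factor that often represses, stood at rank 294 of all genes in FPKM. Junb followed with 42.3 FPKM, Jun with 21.9 and Jund with 13.1. The FOS genes were all below the JUN genes, with 6.52 FPKM for Fos, 3.14 for Fosl2, 1.42 for Fosl1 and 0.215 for Fosb. Egr1, a zinc finger factor that is not part of AP-1, had 10.9 FPKM, and Maff, a small MAF protein without a transactivation domain, had 2.86. Of the 9 pairs of neighbours in this order, 8 differed beyond counting error. The exception was Fosl2 and Maff, with a ratio of 1.09 (95% counting interval 0.932 to 1.29). With IL-6 the order was the same, and again only Fosl2 and Maff were not resolved.

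With OSM the order differed. Atf3 remained first with 229 FPKM and Junb second with 127, but Egr1, with 29.3 FPKM, now stood beside Jun with 28.6 (ratio 1.02, 0.974 to 1.08). In FPKM, Fosl1 stood above Fosl2 with OSM, with 4.79 against 4.16 (ratio 1.15, 1.01 to 1.31). With vehicle it had been at 0.453 of Fosl2 (0.351 to 0.576). This crossing depends on the lengths used. FPKM divides by 2033 bases for Fosl1 and 9680 for Fosl2, while their canonical GENCODE transcripts have 1864 and 6975 bases. The order of Fosl1 and Fosl2 with OSM is therefore uncertain. The crossing also takes no account of the trend on gene length described below. With that trend removed, the log2 change of the ratio was 0.59 (0.20 to 0.98) in place of 1.35. Fosl1 also shares exonic bases with Ccdc85b, as given below, so its level is uncertain. Fosb stayed last, with 0.686 FPKM. Summed over the 10 genes, the transcripts came to 603 CPM with vehicle, 613 with IL-6 and 1128 with OSM.

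**Figure D1:**
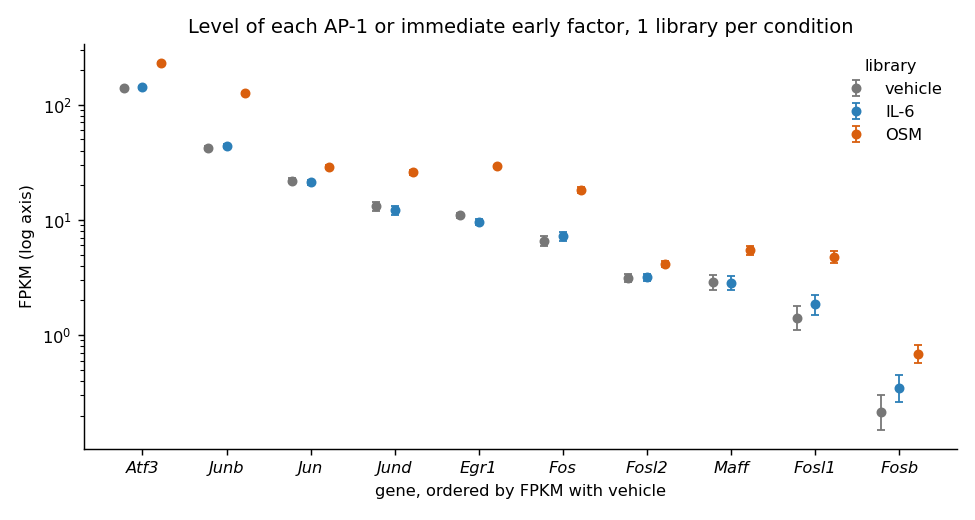
Level of each of the 10 genes in FPKM (log axis) in the vehicle, IL-6 and OSM libraries, with bars for the 95% counting interval. The OSM point lies above the vehicle and IL-6 points for all 10 genes, from 0.686 FPKM for Fosb to 229 for Atf3, and the vehicle and IL-6 points lie close together.

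The comparison of OSM with vehicle took in 15537 genes, those whose counts in both libraries together reached 10. A gene was called when the whole 95% Clopper-Pearson interval of its TMM-scaled ratio lay beyond 2-fold. No molecular identifiers were available to tell PCR copies from separate molecules, so the interval holds for counting error alone. By this rule 5 of the 10 factors, Fosl1, Fosb, Junb, Fos and Egr1, were higher with OSM and 0 were lower. Over all compared genes, 3.74% were called higher and 5.43% lower. The intervals of the other 5 factors, Jund, Maff, Atf3, Fosl2 and Jun, also lay above 0 but not beyond 2-fold. The share of all genes with an interval above 0 was not counted. By log2 fold change, 9.4% of compared genes lay above Jund, 10.2% above Maff and 14.1% above Atf3. For Fosl2 and Jun these shares were 26.8% and 28.1%. The median log2 fold change of the 10 was 1.20, against 0.00459 for all compared genes. With intervals widened as if cultures varied by a biological coefficient of variation (BCV) of 0.2, 0 of the 10 factors were called, so the calls were lost with a spread of that size between cultures.

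Among the FOS genes, whose proteins bring the partner of JUN, 3 of 4 were called higher, where 3.74% of all compared genes were. Fos had 388 counts with vehicle, 461 with IL-6 and 1282 with OSM. Its OSM count stands well apart from the other libraries, and against vehicle the scaled ratio was 2.79-fold, or 1.48 in log2 (1.32 to 1.65). Fosl1, which encodes FRA-1, had 73, 102 and 291 counts in the same order, a log2 fold change of 1.75 (1.38 to 2.14). Fosb had the fewest counts of the 10, 34 with vehicle, 59 with IL-6 and 128 with OSM, and a wide interval around its log2 fold change of 1.67 (1.12 to 2.26). Fosl2, which encodes FRA-2, went from 768 and 832 counts to 1203, a log2 fold change of 0.41 (0.27 to 0.54). The FOS genes thus differed among themselves. The ratio of Fos to Fosl2 in FPKM was 2.08 with vehicle (1.84 to 2.35), 2.28 with IL-6 (2.03 to 2.56) and 4.39 with OSM (4.05 to 4.75). That ratio differed between OSM and vehicle by 1.08 on the log2 scale (0.87 to 1.29). For Fosl1 over Fosl2 the difference was 1.35 (0.96 to 1.74), and for Fosb over Fosl2 it was 1.27 (0.70 to 1.83). Fosl2 is much longer than Fos and Fosl1, and with the trend on gene length described below removed, the differences were smaller, 0.39 for Fos (0.18 to 0.60), 0.59 for Fosl1 (0.20 to 0.98) and 0.97 for Fosb (0.41 to 1.53).

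Among the JUN genes, whose proteins form the dimer's other side, 1 of 3 was called higher, where 3.74% of all compared genes were. Junb had 2461 counts with vehicle, 2745 with IL-6 and 8713 with OSM. Against vehicle the scaled ratio was 2.99-fold, or 1.58 in log2 (1.52 to 1.65), with the narrowest interval of the 5 called factors. Jund, known for its steady expression in resting cells, had 552, 547 and 1287 counts, or 0.98 in log2 (0.83 to 1.13), with an interval that lies on both sides of 2-fold. Jun had 1768, 1832 and 2725 counts, a log2 fold change of 0.38 (0.30 to 0.47). Within the JUN genes the OSM library therefore held more Junb per Jun. The ratio in FPKM was 1.93 with vehicle (1.81 to 2.05), 2.08 with IL-6 and 4.43 with OSM (4.24 to 4.63), a log2 difference between OSM and vehicle of 1.20 (1.09 to 1.31). The ratio of Jun to Jund differed by -0.60 on the log2 scale between OSM and vehicle (-0.76 to -0.43), and by -0.37 (-0.54 to -0.20) with the length trend removed. The ratio of Fos to Junb, by contrast, was 0.154 with vehicle and 0.144 with OSM, a log2 difference of -0.10 whose interval (-0.28 to 0.08) includes 0.

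Atf3, a bZIP factor that pairs with JUN proteins, had 7565 counts with vehicle, 8224 with IL-6 and 14728 with OSM. It had the highest count of the 10 in each library and a scaled ratio of 1.65-fold, or 0.72 in log2 (0.68 to 0.76), which is within 2-fold over its whole interval. Maff had 188, 199 and 421 counts, or 0.92 in log2 (0.67 to 1.18). The ratio of Atf3 to Junb in FPKM went from 3.28 with vehicle (3.14 to 3.44) to 1.81 with OSM (1.76 to 1.85). Of the summed FPKM of the 10 genes, Atf3 made up 57.6% with vehicle, 57.9% with IL-6 and 48.4% with OSM. The share of Junb was 17.5%, 18.1% and 26.8%, and that of Jun 9.09%, 8.72% and 6.05%.

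**Figure D2:**
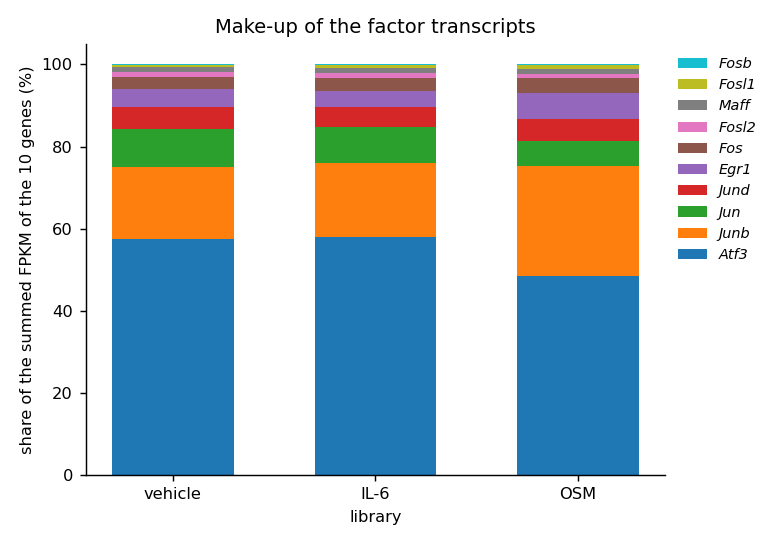
Share of the summed FPKM of the 10 genes (percent) taken by each gene in the vehicle, IL-6 and OSM libraries. The Junb segment grows from 17.5% with vehicle to 26.8% with OSM while that of Atf3 shrinks from 57.6% to 48.4%, and the vehicle and IL-6 bars look alike.

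Egr1 (ENSMUSG00000038418) is an immediate early zinc finger gene with 2 exons. It had 1241 counts with vehicle, 1157 with IL-6 and 3921 with OSM. The OSM library was 2.67-fold higher, or 1.42 in log2 (1.33 to 1.51), while the IL-6 library lay slightly under vehicle. In the order of log2 fold changes, Fosl1, Fosb, Junb, Fos and Egr1 came first, and no neighbours among them differed beyond counting error. Egr1 and Jund, the next in order, differed by 0.44 (0.27 to 0.61). Jund, Maff and Atf3 came next with no resolved neighbours, and Atf3 exceeded Fosl2 by 0.31 (0.18 to 0.45), while Fosl2 and Jun did not differ beyond their counts (0.02, -0.13 to 0.18). This order below the 5 called factors depended on gene length. With the median of genes of like length subtracted, Atf3 was at 0.38 (0.34 to 0.42) and Fosl2 at 0.81 (0.67 to 0.94), so that their order turned, and Fosl2 stood next after Fos, which exceeded it by 0.39 (0.18 to 0.60). Among all genes compared, Fosl1 was at rank 603 by log2 fold change, Junb at 694 and Egr1 at 830, so that 3.97% to 5.47% of genes lay above them.

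**Figure D3:**
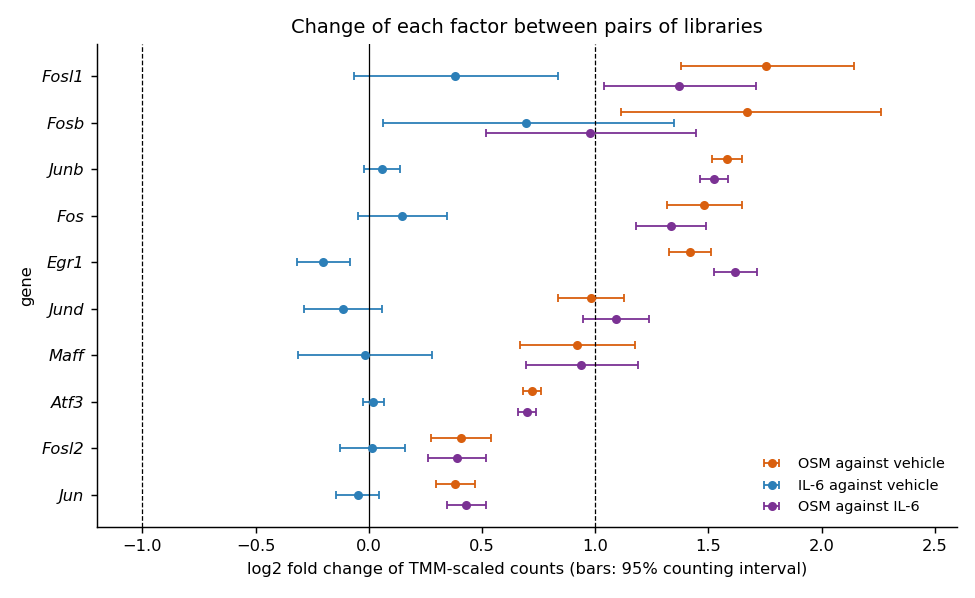
Log2 fold change of TMM-scaled counts for each of the 10 genes in the comparisons of OSM with vehicle, IL-6 with vehicle and OSM with IL-6, with bars for the 95% counting interval and dashed lines at 2-fold. Against vehicle, 5 genes with OSM lie wholly beyond the right dashed line, from 1.42 for Egr1 to 1.75 for Fosl1, and the IL-6 points lie between -0.20 and 0.70.

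In IL-6-treated ACMs, 0 of the 10 factors were called higher and 0 lower against vehicle, where 1.77% of 15472 compared genes were called higher and 1.74% lower. Log2 fold changes ran from -0.20 to 0.70, with 6 above 0 and 4 below. Egr1 was lower beyond counting error, at -0.20 (-0.32 to -0.08), and Fosb was higher beyond counting error, at 0.70 (0.06 to 1.35), on 34 and 59 counts. By log2 fold change, 76.7% of all compared genes lay above Egr1 and 8.72% above Fosb, so that values like that of Egr1 were common. The intervals of the other 8 included 0. For the most counted factors they were narrow, -0.02 to 0.07 for Atf3 and -0.02 to 0.14 for Junb. An effect at an earlier time after IL-6 was not measured here.

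Set against IL-6 in place of vehicle, the OSM library had 4 of the 10 factors called higher and 0 lower, among 15544 genes of which 4.24% were called higher and 5.42% lower. This comparison uses the same OSM library as the one with vehicle. The log2 fold changes were 1.62 for Egr1 (1.52 to 1.71), 1.52 for Junb (1.46 to 1.59), 1.37 for Fosl1 (1.04 to 1.71) and 1.33 for Fos (1.18 to 1.49). Fosb, whose IL-6 count lay between the others, had 0.98 (0.52 to 1.45) and was not called. With library totals in place of TMM, Fosl1 lost its call, at 1.29. Jund had 1.09 (0.95 to 1.24), Maff 0.94 (0.69 to 1.19), Atf3 0.70 (0.66 to 0.74), Jun 0.43 (0.34 to 0.52) and Fosl2 0.39 (0.26 to 0.52).

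In these libraries the log2 fold change with OSM moved with gene length. Over 9444 well counted protein-coding genes the shortest eighth had a median of 0.47 and the longest eighth of -0.56, while for IL-6 against vehicle these medians were 0.02 and -0.03. The factors are mostly short. Of Junb's 1.58, the genes of like length had a median of 0.29, and of Fosl1's 1.75 they had 0.36. After subtraction of this median, the same 5 factors were called, with Fosb at 1.78 (1.22 to 2.37), Fosl1 at 1.39 (1.02 to 1.78), Egr1 at 1.38 (1.29 to 1.47), Junb at 1.29 (1.23 to 1.36) and Fos at 1.20 (1.03 to 1.36). Fosl2, the longest of the 10 with 9680 bases, went from 0.41 to 0.81 (0.67 to 0.94), and Jun from 0.38 to 0.19 (0.11 to 0.28). Jund went from 0.98 to 0.56 (0.42 to 0.71), Maff from 0.92 to 0.65 (0.40 to 0.91) and Atf3 from 0.72 to 0.38. The intervals of Fosl2 and Jun, which overlapped before, did not overlap after the subtraction. Against IL-6 the subtraction left 2 factors called, Egr1 and Junb. What links length and fold change was not tested.

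**Figure D4:**
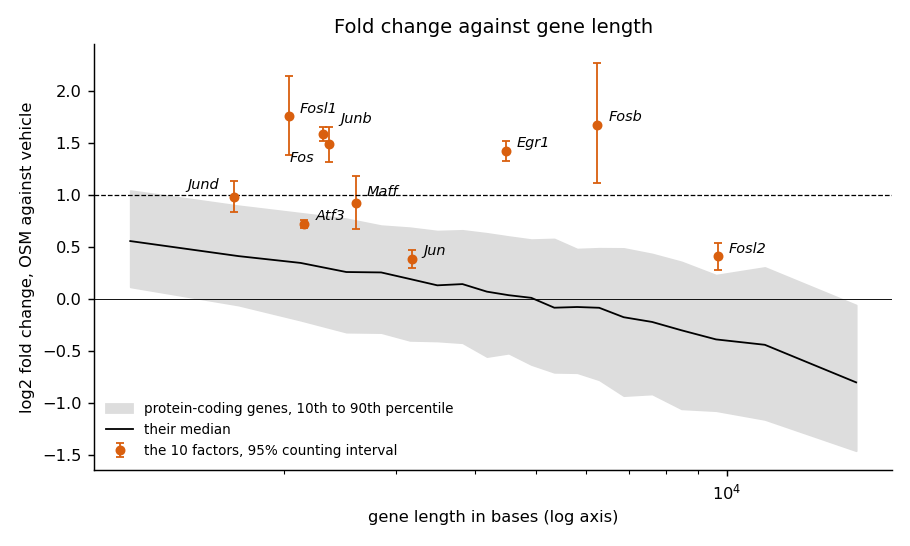
Log2 fold change of OSM against vehicle plotted against gene length in bases (log axis) for the 10 factors, with 95% counting intervals, over the median (line) and the 10th to 90th percentile (grey) of protein-coding genes. The line falls with length, Fosl1, Fosb, Junb, Fos and Egr1 lie well above the grey band, and the points of Jun (0.38) and Atf3 (0.72) lie inside it.

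Several factors lie over genes of the other strand, and whether strand was used in counting is not given in the sources used here. Exons of Ccdc85b cover 57.2% of the exonic bases of Fosl1, and Ccdc85b had 388 counts with vehicle, 444 with IL-6 and 699 with OSM. The value of Fosl1 is uncertain for that reason. Prdx2, which had 6110, 6382 and 9665 counts, covers 7.27% of the exonic bases of Junb, and Junos, with 29, 16 and 18 counts, covers 16.6% of those of Jun. The gene Gm11175 covers 52.6% of the exonic bases of Jund and had 0 counts in every library. Those 0 counts do not show that the counts of Jund were unaffected by the overlap. The level of Jund and its place in the order of levels are therefore uncertain as well. A search of the genome found no other place with a copy of at least 100 bases at 97% identity for any of the 10 transcripts (0% of their bases).

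The promoters of the factors are shown because 5 of them rose together, and because immediate early promoters are known for their CREB, STAT and serum response elements. RefSeq windows of 300 bases, from 250 before to 50 after a gene's start, were found for 8 of the 10 factors, and the table holds 10 windows for them because Maff has 3. Fosl1 and Egr1 were not matched. Fos and Junb are shown as the called factors with most counts in their families, Maff for its several kinds of match, and Jun as the factor with the smallest log2 fold change. Capitals mark TGACG (the first part of the cAMP response element, CRE) on either strand, the full TGACGTCA, the STAT pattern TTCNNNGAA and the EGR pattern GCGNGGGCG on either strand. The full CRE contains TGACG on both strands. Coordinates in this paragraph are those of RefSeq on GRCm38.p6, with the windows read 5′ to 3′ along the gene.
Fos, chr12:85473640-85473939, plus strand: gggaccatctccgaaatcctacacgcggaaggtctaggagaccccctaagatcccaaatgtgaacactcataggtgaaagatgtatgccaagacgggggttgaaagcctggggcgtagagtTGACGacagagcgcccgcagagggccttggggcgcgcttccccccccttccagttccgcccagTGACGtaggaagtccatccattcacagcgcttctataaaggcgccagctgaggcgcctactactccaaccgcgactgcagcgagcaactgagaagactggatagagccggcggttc
Junb, chr8:84978699-84978998, minus strand: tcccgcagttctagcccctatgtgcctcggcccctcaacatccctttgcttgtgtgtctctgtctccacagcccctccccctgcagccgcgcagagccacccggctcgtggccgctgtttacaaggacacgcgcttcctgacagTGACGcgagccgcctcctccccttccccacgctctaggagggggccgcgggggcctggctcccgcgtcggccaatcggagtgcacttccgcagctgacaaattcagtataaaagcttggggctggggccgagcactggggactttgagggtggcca
Maff, chr15:79347270-79347569, plus strand: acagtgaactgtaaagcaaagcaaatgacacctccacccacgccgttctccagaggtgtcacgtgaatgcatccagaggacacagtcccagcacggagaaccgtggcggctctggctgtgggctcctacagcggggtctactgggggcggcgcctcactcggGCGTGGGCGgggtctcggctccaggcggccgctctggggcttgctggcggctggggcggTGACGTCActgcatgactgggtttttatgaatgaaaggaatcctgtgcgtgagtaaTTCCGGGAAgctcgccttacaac
Jun, chr4:95052173-95052472, minus strand: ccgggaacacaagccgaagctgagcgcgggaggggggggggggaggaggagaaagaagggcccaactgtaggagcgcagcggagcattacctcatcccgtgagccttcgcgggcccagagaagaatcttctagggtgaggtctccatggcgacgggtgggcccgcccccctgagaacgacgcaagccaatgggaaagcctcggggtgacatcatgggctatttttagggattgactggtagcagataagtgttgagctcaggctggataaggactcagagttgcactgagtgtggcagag

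The sequence TGACG on either strand occurred in the windows of 5 of 8 factors, Fos, Junb, Fosb, Atf3 and Maff, and in 6 of the 10 windows, while 20.8% of all 32851 promoter windows held it. The windows with TGACG were rich in G and C, from 58.7% for Fos to 68.3% for Fosb. The median of all windows was 52.7%. The part of base composition in the number of matches was not tested. In Fos it starts 129 and 66 bases before the RefSeq start, the second close to a TATAA at -33, and in Junb at -106. The second window of Maff holds a full TGACGTCA at -29, found in 1.79% of all windows, and also TTCCGGGAA at 28 (the STAT pattern, 8.30% of all windows) and GCGTGGGCG at -88 (the EGR pattern, 5.55%). The EGR pattern occurred in 3 of the 10 windows, those of Maff, Fosb and Fosl2. The AP-1 element TGANTCA, found in 7.81% of all windows, and the CArG box of serum response factor, found in 1.63%, occurred in 0 of the 10. The windows of Jun and Jund and the first window of Maff held none of the patterns searched. Of the 5 factors with TGACG in a window, Junb, Fos and Fosb were called with OSM, and Atf3 and Maff were not. A match is a description of letters in a window and not a bound site, and a missing match says nothing of the factor.

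The windows were placed on GRCm39, the build of the count table, by exact match, and each matched at 1 place. The RefSeq start used for Fos, Jun and the first window of Maff is the authors' gene start. Counted from the authors' start, with negative values upstream, that of Junb lies at -30, that of Fosb at 6 and that of Fosl2 at 671 bases. The start used for Jund lies at -1210 bases, so that its window does not reach the authors' start, and that of Atf3 lies 34706 bases inside the authors' gene, whose first start is far upstream. On GRCm39, Fos (4 exons) spans 85520664 to 85524047 of chromosome 12, plus strand. Junb and Jun, each with 1 exon, are minus-strand genes, spanning 85701113 to 85705347 of chromosome 8 and 94937271 to 94940459 of chromosome 4. Maff (3 exons) spans 79230821 to 79243276 of chromosome 15, plus strand. Of the other FOS genes, each with 4 exons, Fosb spans 19036621 to 19043976 of chromosome 7, minus strand, Fosl1 spans 5497575 to 5505974 of chromosome 19 and Fosl2 spans 32293145 to 32315186 of chromosome 5, both plus strand. Jund (1 exon) spans 71151599 to 71153265 of chromosome 8, plus strand, and Atf3 (4 exons) 190902493 to 190950236 of chromosome 1, minus strand.

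Other immediate early genes were higher with OSM as well. Of 34 listed, 32 were compared, 11 were called higher (34.4%, against 3.74% of all genes) and 0 lower, with a median log2 fold change of 0.67. This list and those that follow were chosen with earlier results of these data known. Their shares therefore describe the lists and are not a test. Trib1, a pseudokinase that brings C/EBP proteins to degradation, had 143 counts with vehicle, 187 with IL-6 and 1331 with OSM, or 2.98 in log2 (2.73 to 3.24). Ier5l had 45, 56 and 384 counts (2.85, 2.40 to 3.33), Phlda1 1574, 1801 and 8388 (2.17, 2.09 to 2.25) and Ier2 370, 329 and 1714 (1.97, 1.81 to 2.14). The rest of the 11 were Ier3, Zfp36, Arc, Csrnp1, Klf2, Gadd45b and Ier5, and with the length trend removed 7 of the 11 were called. With a BCV of 0.2, 6 were called. The nuclear receptor genes of the NR4A family, which are also immediate early genes, were not called. They showed no common direction, since Nr4a1 went from 624 counts to 505, or -0.55 in log2 (-0.72 to -0.38), Nr4a2 from 60 to 97, or 0.45 (-0.03 to 0.94), and Nr4a3 from 148 to 164, or -0.09 (-0.42 to 0.24). Egr2, Egr3 and Egr4, the relatives of Egr1, had at most 10 counts in any library. These NR4A and EGR genes were picked with their values in view. In IL-6-treated ACMs, 0 of 31 compared immediate early genes were called higher and 1 lower against vehicle. Of all genes, 1.77% were called higher and 1.74% lower, shares too near to these counts to be read as a difference. The gene called lower was Plk3, with 32 counts with vehicle and 7 with IL-6, named after its values had been seen.

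The other bZIP genes related to AP-1 showed no common direction with OSM, with 5 compared genes above 0 and 4 below. Of 12 listed, 9 were compared, with a median log2 fold change of 0.06, 1 called higher and 1 lower, beside 3.74% and 5.43% of all genes, shares too near to these counts of 9 genes to be read as a difference. Mafa, on few counts, had 11 with vehicle, 37 with IL-6 and 57 with OSM, or 2.13 in log2 (1.19 to 3.21), and lost its call with the length trend removed. Maf, a large MAF factor, had 248, 286 and 96 counts, a log2 fold change of -1.61 (-1.97 to -1.27). With a BCV of 0.2 neither was called. Mafg and Mafk, the other small MAF genes beside Maff, had log2 fold changes of 0.07 (0.02 to 0.11) and 0.35 (0.29 to 0.42), and were picked with their values in view. Batf and Batf3 had at most 6 counts in any library and Nrl had 0.

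The kinases and factors upstream of the immediate early genes were not called, 0 of 25 in either direction, where 3.74% of all compared genes were higher and 5.43% lower, and 0 of 25 is near those shares. Their median log2 fold change was 0.02, and 0.25 with the length trend removed. Srf, which encodes serum response factor, had 2695 counts with vehicle, 2869 with IL-6 and 4119 with OSM, or 0.37 in log2 (0.30 to 0.44). Stat3, the main transcription factor of gp130 cytokines, had 7953, 8947 and 14412 counts, a log2 fold change of 0.62 (0.58 to 0.66). Socs3, a feedback gene of the same pathway, had 670, 646 and 18194 counts, and its log2 fold change of 4.52 (4.41 to 4.63) exceeded those of all 10 factors. Against IL-6, 2 of the 25 were called higher with OSM (8%, against 4.24% of all genes), Crem and Stat5a, named after their values had been seen. A count of 2 is too small to be read as a difference from that share.

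Among 16 negative regulators of the pathway, 15 were compared and 2 were called higher with OSM (13.3%, against 3.74% of all genes) and 0 lower, both phosphatases that remove phosphate from ERK. The median was 0.06, and 0.31 with the length trend removed. Dusp6 had 285 counts with vehicle, 251 with IL-6 and 2123 with OSM, or 2.66 in log2 (2.48 to 2.84). Dusp5 had 237, 249 and 1215, a log2 fold change of 2.12 (1.91 to 2.32). The EGR corepressor gene Nab2, itself a known target of EGR1, had 182, 181 and 317 counts and 0.56 (0.29 to 0.83), and was named after its values had been seen.

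Of 20 genes known as AP-1 targets, 17 were compared, 6 were called higher with OSM (35.3%, against 3.74% of all genes) and 0 lower (5.43% of all genes), with a median log2 fold change of 1.05. This list too was chosen with earlier results known, and the paper names Timp1 among the genes most induced by OSM. The share is therefore no independent support. Timp1, an inhibitor of metalloproteinases, had 203 counts with vehicle, 178 with IL-6 and 6739 with OSM, or 4.81 in log2 (4.61 to 5.02). Ptgs2, which encodes cyclooxygenase-2, had 52, 34 and 798 counts, a log2 fold change of 3.70 (3.29 to 4.13). Cd44, a hyaluronan receptor, had 632, 549 and 3968 counts (2.41, 2.29 to 2.53) and Hbegf, an EGF receptor ligand, 889, 966 and 4244 (2.01, 1.91 to 2.12). The other 2 called were Il6 and Ccl2, both on few counts. With IL-6 against vehicle, 1 of 15 compared targets was called lower, where 1.74% of all genes were. It was Plau, with 32 counts and 0, at least 11.4-fold lower at a floor of 3 counts per library. The metalloproteinase genes Mmp3 and Mmp10, classical AP-1 targets in fibroblasts, had 0 counts in all libraries, which allows up to 0.0975 CPM with OSM at 3 counts. Several of these genes are also known targets of STAT3.

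**Figure D5:**
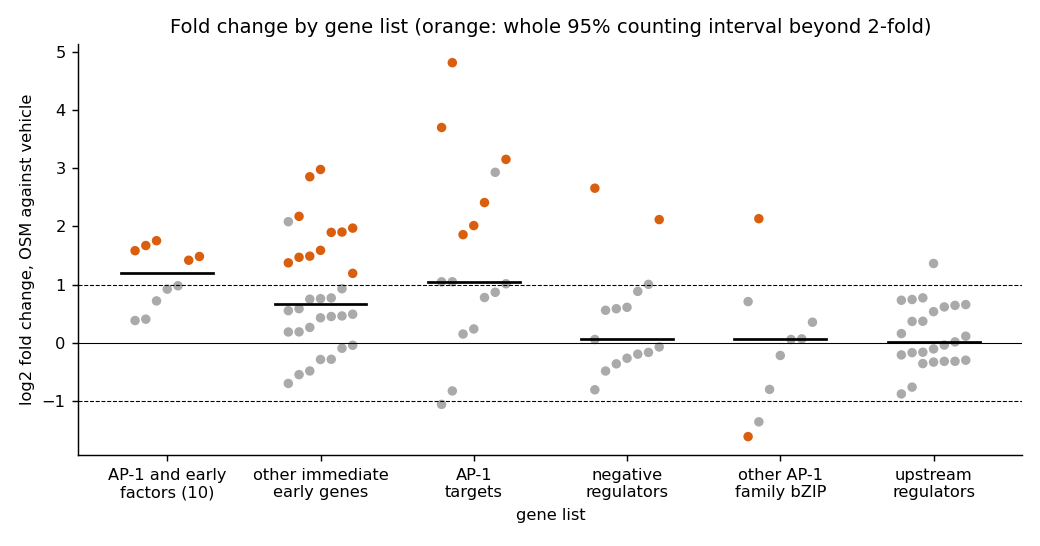
Log2 fold change of OSM against vehicle for the compared genes of 6 lists, with the list median as a bar, dashed lines at 2-fold and called genes in orange. Called higher are 5 of the 10 factors, 11 of 32 other immediate early genes and 6 of 17 AP-1 targets. Of the negative regulators 2 of 15 are called higher, of the other bZIP genes 1 of 9, and of the upstream regulators 0 of 25. Over all compared genes the share is 3.74%. All lists were chosen with earlier results of these data known. Mmp9, with 0 counts with vehicle, is not drawn.

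The gene pattern most like that of Fosl1 was sought over the 3 libraries among 10339 genes with at least 100 counts in the highest library. Fosl1 was taken because its TMM-scaled log2 fold change was the highest of the 10, though not resolved from that of Fosb (0.08, -0.58 to 0.74), which was the higher of both with the length trend removed. Its value is also uncertain because of Ccdc85b. Likeness was the distance between the pairs of log2 fold changes for OSM and IL-6 against vehicle. The nearest was Rin1, a RAS effector gene, with 197 counts with vehicle, 280 with IL-6 and 791 with OSM, at a distance of 0.03 on the log2 scale. Cish, a SOCS family gene, followed with 151, 215 and 617 counts at 0.04, and E230013L22Rik with 145, 198 and 552 counts at 0.07. These distances are smaller than the width of Fosl1's own counting interval, and 3 libraries give few points to compare.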

How the data were processed

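RNAseq was compared between 1 library each of vehicle-, IL-6- and OSM-treated ACMs, grouped by the treatment label. According to the submitters' processing notes, fastp, HISAT2 2.2.1, featureCounts 2.0.6 and edgeR 4.0.16 were used on mm39, and the paper names other versions of featureCounts and edgeR. The deposited counts are whole numbers per gene, without normalization. The deposited FPKM values, scaled for gene length and mapped fragments, are the authors' own and were used for levels between genes. No per-sample column was left out (0 columns).

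TMM scaling of each pair of libraries used edgeR 4.0.16 in R 4.3.3. Genes reaching 10 counts in a pair were compared by the ratio of scaled counts, with its 95% Clopper-Pearson interval, and called when the interval lay beyond 2-fold. The floor for 0 counts is 3 counts, 0.120 CPM with vehicle, 0.114 with IL-6 and 0.0975 with OSM. Differences between log2 fold changes have normal intervals of log counts. With 1 library per condition no test across replicates exists, and no p-value is given. The ratio and its call were run on simulated counts scaled by library totals, with changed genes far beyond 2-fold and no spread between cultures. That run therefore does not bear on calls near 2-fold or on variation between cultures. The length trend is a running median of 501 protein-coding genes whose counts averaged 100 or more. Exons come from GENCODE M39, promoters from RefSeq.

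The 10 factors and all lists were chosen with earlier results of these data known. All 10 were named, with up to 4 called genes of each other list with at least 50 counts and the largest fold, Stat3, Srf, Socs3 and the 3 genes of nearest pattern, and genes outside this rule are said to be so or are named without values. Alternatives were library totals, DESeq2 1.42.0 factors, the FPKM constants, no filter, removal of the length trend, an assumed BCV of 0.2 or 0.4, a 1.5-fold limit and a prior count of 2.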

Additional observations from a re-analysis of the deposited data

How the results depend on the processing

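For the 10 factors in 3 comparisons, 241 of the log2 fold changes under an alternative kept their direction and their side of the 2-fold call, 21 lost the call, 7 gained it and 1 changed sign. That value was Maff with IL-6 against vehicle, 0.00201 with library totals in place of -0.02. Many of the 241 outcomes were fixed by the setting. All 10 factors passed the count filter, and the BCV and 1.5-fold settings leave the log2 fold changes themselves unchanged. A value that was not called could not lose a call. The count of 241 is therefore not a measure of robustness. No paired analysis was possible because each condition had 1 library, and for the same reason no library could be left out. With an assumed BCV of 0.2, 0 factors were called higher for OSM against vehicle and 0 against IL-6, and with 0.4 also 0 and 0, while 230 and 98 of all genes were still called higher against vehicle. With the 1.5-fold limit, 8 and 7 factors were called higher, where 1357 and 1365 of all genes were. Removal of the trend on gene length left 2 factors called against IL-6. Fosl1 was also not called against IL-6 with library totals (1.29).

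For OSM against vehicle in the other lists, removal of the trend left 7 other immediate early genes and 0 other bZIP genes called higher. With a BCV of 0.2 there were 6 immediate early genes, and 0 bZIP genes higher and 0 lower. With 0.4 there were 2 immediate early genes, 2 AP-1 targets, 1 negative regulator, and 0 bZIP genes higher and 0 lower. The 1.5-fold limit gave 11 AP-1 targets, 4 negative regulators and 3 upstream regulators higher, and 2 bZIP genes, 1 immediate early gene, 1 upstream regulator, 1 AP-1 target and 1 negative regulator lower. At this limit 1357 of all genes were called higher and 1850 lower. The prior count with calls by the point estimate gave 10 AP-1 targets and 1 upstream regulator higher, and 2 bZIP genes and 1 AP-1 target lower. By that rule 1435 of all genes were called higher and 1908 lower. Depth limits Fosb most, with 34 counts with vehicle.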

Other observations

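Some genes of low count varied between the libraries by more than counting error, in no common direction. Plau had 32 counts with vehicle, 0 with IL-6 and 42 with OSM, Plk3 had 32, 7 and 64, and the fibroblast gene Col1a2 had 14, 41 and 6. These genes were chosen after their values had been seen. Fosb, with 34, 59 and 128 counts, lies in the same range of counts.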
